A study of Mus musculus with 12 samples.

Results

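Cell cycle and DNA replication genes were followed in mouse kidney as a set of 36 genes taken from a list, each matched by its Entrez Gene number to 1 symbol, out of 24532 gene identifiers measured. All 36 were present. They were grouped by role: 4 genes of entry into S phase (G1/S), 10 genes of DNA replication and nucleotide supply, and 22 genes of mitosis. The mitosis genes were 8 cyclins and kinases with their regulators, 10 proteins of chromosomes and the spindle, and 4 genes of the spindle checkpoint and the anaphase-promoting complex (APC/C).

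Total RNA came from mouse kidneys, in 4 groups of 3 libraries. Wild-type mice (strain C57BL/6) received vehicle or GW4064, a synthetic agonist of the bile acid receptor FXR, for 6 h. Mice of the strain Nr1h4tm1Gonz/J, in which the FXR gene Nr1h4 is disrupted throughout the body, received vehicle or GW4064 for 6 h. The labels give no time for the vehicle groups, no dose, age or sex, and no statement that knockout and wild type were littermates, so genotype and strain cannot be told apart. Nothing says that each library was a different animal. The p-values therefore rest on the spread among samples, and that spread may be technical. The series text mentions overnight fasting without setting any group apart.

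Mapped sequence was 2.86 to 4.27 gigabases per library. Nr1h4 measured 189.1 to 266.7 TPM (a level corrected for gene length and scaled to 1 total per library) in the wild-type libraries and 104.8 to 134.1 TPM in the knockout libraries, which checks the labels in direction; the whole-gene value does not tell intact from truncated transcripts. All 8 markers of kidney tubule and glomerulus were measured, with summed levels of 8619 to 10250 TPM per library. Of these, 1 fell with GW4064 in wild type, the collecting duct water channel gene Aqp2.

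Dividing cells pass from G1 into S phase when cyclin D and cyclin E kinases release E2F factors, which switch on the genes of DNA synthesis. The MCM helicase then opens the DNA, the sliding clamp PCNA holds the polymerases, and ribonucleotide reductase and thymidylate synthase supply nucleotides. Genes of mitosis are switched on later, in G2 and M phase, through the MuvB complex with B-MYB and FOXM1, and their proteins condense chromosomes, build the spindle and are then destroyed through the APC/C. In adult kidney few cells divide at a time, so transcripts of mitosis genes are rare in whole kidney RNA. In such bulk samples, more cells of a type and more RNA per cell cannot be told apart.

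Levels differed widely between roles. Over the 12 libraries the cyclin gene Ccnd1 averaged 89.5 TPM and the clamp gene Pcna 72.3 TPM. The next members were the helicase subunits Mcm7 (19.4 TPM) and Mcm6 (15.4 TPM). No mitosis member averaged more than Top2a, the DNA-untangling topoisomerase, at 5.27 TPM, and the lowest was the checkpoint kinase Bub1 at 0.481 TPM. Depth was correspondingly low: Foxm1 had a deposited coverage of 0.595 to 2.25 reads per base, against 3.77 to 15.4 for Mki67 and 84.0 to 121.5 for Pcna. Of the 36 members, 34 had at least 1 TPM in at least 3 libraries and could be tested among 14488 genes. Ccne1 and Bub1 could not. Foxm1 reached 1 TPM in 4 libraries, 3 of them the wild-type GW4064 libraries, so it entered the test through the group in which it was high.

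The first question was how these genes differ after the agonist in mice with an intact receptor gene. Of the 34 tested members, 4 rose and 0 fell (limma, Benjamini-Hochberg adjusted p under 0.05 over all genes). They were the proliferation marker Mki67, Top2a, the S and M phase cyclin gene Ccna2, and Rrm2, the regulated subunit of ribonucleotide reductase. Among all genes tested, 2.48% rose and 2.32% fell. That near balance (360 and 336 genes) moved to 458 and 226 with median-of-ratios scaling, under which the 4 members were still called. At an unadjusted p under 0.05 there were 19 of 34 members, against 19.3% of all genes. The median log2 change was 0.78 over the 21 tested mitosis members, all 21 of which had values above 0, and 0.11 over the 10 replication members, of which 8 were above 0. The 21 include Foxm1, which entered through the treated group. Over all genes tested the median was -0.034, and 40.4% were above 0. The difference between the mitosis and the replication median was 0.67 on the log2 scale.

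**Figure D1:**
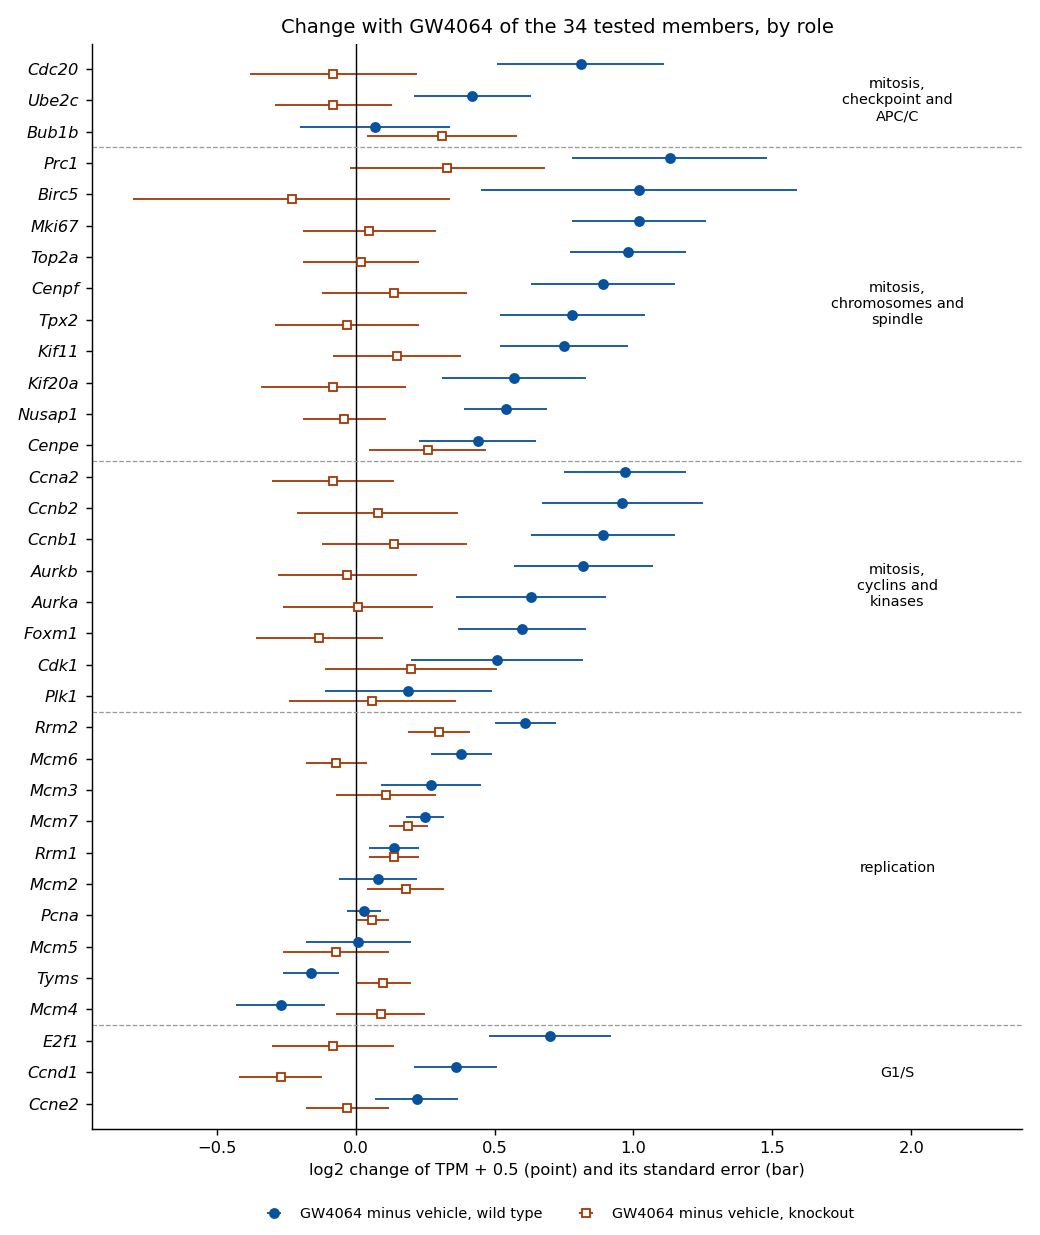
Log2 change with GW4064 (horizontal axis, on the scale of TPM + 0.5) of the 34 tested members, grouped by role, with standard errors as bars. Filled circles are wild type and open squares the knockout; in wild type the mitosis members lie between 0.07 and 1.13 and the replication members between -0.27 and 0.61, while in the knockout all 34 lie between -0.27 and 0.33.

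Mitosis levels in single libraries set 1 group apart. On vehicle the summed TPM of all 22 mitosis members was 59.8, 42.7 and 35.3 in wild type, and with GW4064 it was 78.9, 77.2 and 94.1. In the knockout it was 38.2, 40.6 and 56.3 on vehicle and 52.2, 54.2 and 34.7 with GW4064. The 3 wild-type GW4064 libraries were therefore above all other 9, with no overlap. For the 10 replication members the sums were 172.4, 148.4 and 157.6 TPM in wild type on vehicle and 169.7, 171.4 and 174.3 TPM with GW4064, which overlap. Knockout sums of the same members were 152.0, 152.8 and 156.3 TPM on vehicle and 175.4, 158.4 and 158.3 TPM with GW4064. These did not overlap, by a narrow margin. Ratios of the group means were 1.82 for mitosis and 1.08 for replication in wild type, and 1.04 and 1.07 in the knockout. Pcna alone gave 66.2 to 73.4 TPM of the wild-type replication sums, so their ratio leans on that gene. Without Pcna the sums were 99.1, 82.2 and 88.0 TPM on vehicle and 101.0, 98.4 and 102.2 TPM with GW4064 in wild type. In the knockout they were 77.7, 79.9 and 85.8 TPM, then 91.6, 87.7 and 85.5 TPM. Without Pcna both pairs of groups overlapped.

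**Figure D2:**
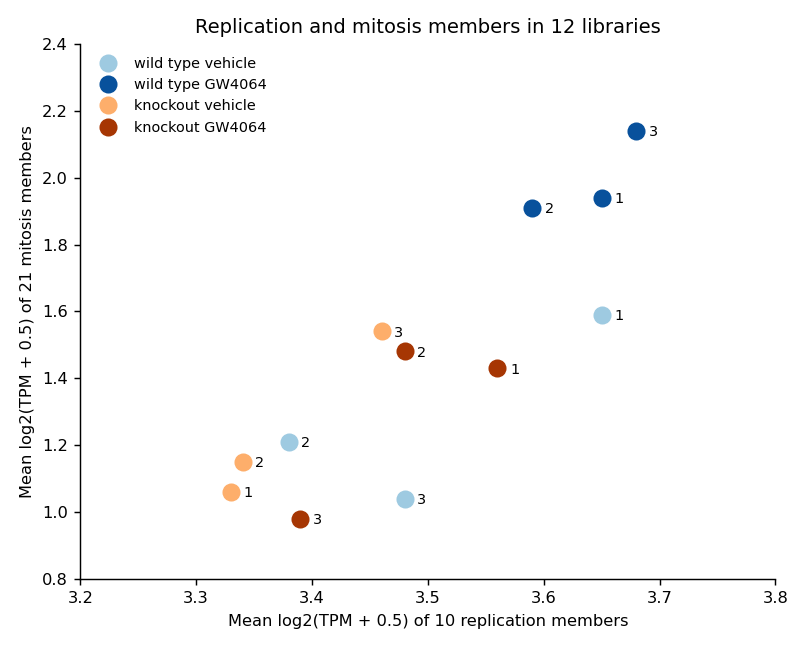
Mean log2(TPM + 0.5) of the 21 tested mitosis members (vertical axis) against that of the 10 replication members (horizontal axis) in each of the 12 libraries, numbered by replicate and coloured by group. The wild-type GW4064 libraries sit at 1.91 to 2.14 for mitosis, above the highest other library at 1.59 (wild-type vehicle replicate 1), while on the replication axis that vehicle library, at 3.65, lies among them.

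Promoter sequences are shown for 4 mitosis members, Mki67 and Top2a, which rose, and Ccnb2 and Cdc20, which did not pass, and for the replication members Rrm2, which rose, and Mcm6, because mitosis and replication genes are classically read through different promoter elements. The 200 bases before the annotated start are given 5′ to 3′ on the gene's own strand, from RefSeq on GRCm38.p6, which is mm10. Capitals mark 3 motifs searched on both strands: the cell cycle homology region or CHR, the MuvB element (TTTGAA or TTCGAA), the CCAAT box of NF-Y, and the E2F site (TTTGGCGC, TTTCCCGC, TTTGCCGC or TTTCGCGC). No motif overlaps another kind in these stretches, and the first 2 E2F matches of Mcm6 overlap each other.
Mki67 (chr7:135716380-135716579, minus strand): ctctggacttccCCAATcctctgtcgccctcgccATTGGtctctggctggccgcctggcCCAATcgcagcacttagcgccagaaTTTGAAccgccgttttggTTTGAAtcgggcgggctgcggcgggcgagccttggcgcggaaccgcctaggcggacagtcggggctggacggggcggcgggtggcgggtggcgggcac
Top2a (chr11:99024190-99024389, minus strand): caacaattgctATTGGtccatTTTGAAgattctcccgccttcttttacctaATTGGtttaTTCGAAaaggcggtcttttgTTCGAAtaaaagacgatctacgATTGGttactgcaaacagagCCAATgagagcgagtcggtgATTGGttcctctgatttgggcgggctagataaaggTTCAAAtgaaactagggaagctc
Ccnb2 (chr9:70421555-70421754, minus strand): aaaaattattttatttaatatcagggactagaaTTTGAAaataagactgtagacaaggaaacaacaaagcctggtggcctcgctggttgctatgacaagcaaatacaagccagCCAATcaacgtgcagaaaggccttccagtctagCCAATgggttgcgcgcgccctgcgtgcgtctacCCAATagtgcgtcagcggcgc
Cdc20 (chr4:118437344-118437543, minus strand): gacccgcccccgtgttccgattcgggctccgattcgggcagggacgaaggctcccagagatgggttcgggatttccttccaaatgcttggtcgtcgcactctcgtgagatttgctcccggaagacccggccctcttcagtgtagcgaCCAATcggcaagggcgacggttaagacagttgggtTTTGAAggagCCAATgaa
Rrm2 (chr12:24708054-24708253, plus strand): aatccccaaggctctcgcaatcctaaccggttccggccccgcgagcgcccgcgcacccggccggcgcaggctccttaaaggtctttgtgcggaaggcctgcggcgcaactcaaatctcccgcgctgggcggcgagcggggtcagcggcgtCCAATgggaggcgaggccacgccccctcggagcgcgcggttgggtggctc
Mcm6 (chr1:128359706-128359905, minus strand): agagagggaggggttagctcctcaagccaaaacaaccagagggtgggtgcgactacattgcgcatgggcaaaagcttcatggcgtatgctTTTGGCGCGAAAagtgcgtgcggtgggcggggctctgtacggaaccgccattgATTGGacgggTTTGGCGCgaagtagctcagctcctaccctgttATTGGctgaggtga

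The printed Mki67 stretch holds 2 CHR and 3 CCAAT matches, that of Top2a 4 and 5, that of Ccnb2 1 and 3, and that of Cdc20 1 and 2. Rrm2 has 1 CCAAT match and Mcm6 has 2 with 3 E2F matches, and neither has a CHR match here. Promoters of 28 members were matched by symbol, 17 of mitosis, 9 of replication and 2 of G1/S. In the 250 bases before the start a CHR match was present in 8 of 17 mitosis and 2 of 9 replication promoters, against 17.4% of 27025 promoters of the same length. CCAAT was present in 15 of 17 and 8 of 9, against 34.5%. An E2F match was present in 1 of 17 and 3 of 9, against 1.91%. These matches describe letters only and are not evidence of binding.

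Among proteins of chromosomes and the spindle, Mki67 and Top2a rose. Mki67 (chromosome 7, 135689788 to 135716379, mm10), which coats mitotic chromosomes, measured 5.74, 3.69 and 3.2 TPM in wild type on vehicle and 8.2, 8.39 and 9.93 TPM with GW4064. In the knockout it measured 3.17, 3.13 and 5.17 TPM on vehicle and 4.73, 4.31 and 2.8 TPM after GW4064. The groups did not overlap in wild type and overlapped in the knockout. The log2 change was 1.02 ± 0.24 (SE) in wild type (limma adjusted p = 0.033, n = 3 per group) and 0.05 ± 0.24 in the knockout (adjusted p = 0.968).

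Top2a (chromosome 11, 98992947 to 99024189) measured 5.37, 3.69 and 2.99 TPM on vehicle and 7.85, 7.09 and 10 TPM after GW4064 in wild type. Knockout libraries gave 3.95, 3.81 and 5.22 TPM on vehicle and 4.91, 4.92 and 3.43 TPM with GW4064. Again every treated wild-type library was above every other library. The log2 change was 0.98 ± 0.21 in wild type (limma adjusted p = 0.0209) and 0.02 ± 0.21 in the knockout.

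The 8 other chromosome and spindle members did not pass in wild type. Their log2 values ran from 0.44 ± 0.21 for the kinetochore motor Cenpe to 1.13 ± 0.35 for Prc1, which bundles midzone microtubules (limma adjusted p = 0.268 and 0.0922). Closest to the threshold was Nusap1, a spindle microtubule binder, at 0.54 ± 0.15 (adjusted p = 0.0638). Birc5 (survivin) had the least certain value of all, 1.02 ± 0.57 (adjusted p = 0.367). It measured 0.47, 2.99 and 1.24 TPM on vehicle and 3.04, 2.78 and 3.7 TPM with GW4064, and in the knockout 0.39, 2.77 and 1.68 TPM, then 0.78, 2.78 and 0.44 TPM. Libraries of the same group were far apart in all groups but the treated wild type, and the wild-type groups overlapped.

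Of the 8 cyclins, kinases and their regulators, 1 rose, Ccna2 (chromosome 3, 36564865 to 36571996). It measured 3.15, 2.81 and 1.98 TPM on vehicle and 4.3, 6.2 and 6.53 TPM after GW4064 in wild type, and 3.06, 2.98 and 4.02 TPM, then 4.27, 2.94 and 2.38 TPM in the knockout. Wild-type groups did not overlap, although the lowest treated library at 4.3 TPM was close to the highest knockout library at 4.27 TPM. The log2 change was 0.97 ± 0.22 (limma adjusted p = 0.0297) in wild type and -0.08 ± 0.22 in the knockout.

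The B-type cyclin genes Ccnb1 (0.89 ± 0.26) and Ccnb2 (0.96 ± 0.29), which drive mitotic entry with CDK1, had values near that of Ccna2 and did not pass (limma adjusted p = 0.0793 and 0.0887). The chromosomal passenger kinase Aurkb was at 0.82 ± 0.25, the spindle pole kinase Aurka at 0.63 ± 0.27 and the transcription factor Foxm1 at 0.60 ± 0.23, also short of the threshold (adjusted p = 0.0965, 0.225 and 0.182). The mitotic kinase Plk1 differed least, at 2.07, 0.71 and 1.08 TPM on vehicle and 1.74, 1.37 and 1.25 TPM with GW4064. Its wild-type groups overlapped (log2 0.19 ± 0.30, adjusted p = 0.781).

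None of the 3 tested checkpoint and APC/C members passed. Cdc20, the APC/C activator, measured 5.3, 2.98 and 2.53 TPM on vehicle and 5.49, 6.49 and 7.31 TPM after GW4064 in wild type. Knockout libraries gave 3.06, 3.48 and 4.1 TPM, then 4.45, 4.23 and 1.84 TPM. The wild-type groups were separate by a narrow margin (log2 0.81 ± 0.30, limma adjusted p = 0.158). Bub1b, the checkpoint kinase BubR1, was at 0.07 ± 0.27, with 3.38, 2.42 and 2.06 TPM on vehicle and 2.66, 2.28 and 3.35 TPM with GW4064. Bub1, too low to test, was at 0.28, 0.4 and 0.19 TPM on vehicle and at 1.24, 0.89 and 1.11 TPM after GW4064 in wild type, and at 0 to 0.52 TPM in the 6 knockout libraries.

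In replication and nucleotide supply the member that rose was Rrm2 (chromosome 12, 24708254 to 24714146). It measured 7.56, 5.52 and 5.72 TPM on vehicle and 9.57, 9.86 and 9.81 TPM after GW4064 in wild type. Treated knockout libraries, at 7.13, 7.16 and 7.56 TPM, were also all above the knockout vehicle libraries at 5.54, 6.1 and 5.87 TPM, but that difference did not pass. The log2 change was 0.61 ± 0.11 in wild type (limma adjusted p = 0.00706) and 0.30 ± 0.11 in the knockout (adjusted p = 0.348). Rrm1, the constant subunit of the same enzyme, differed by 0.14 ± 0.09 in both genotypes.

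None of the 6 MCM helicase subunits passed in wild type, 5 of the 6 had values above 0, and their log2 values ran from -0.27 ± 0.16 for Mcm4 to 0.38 ± 0.11 for Mcm6 (limma adjusted p = 0.407 and 0.0791). Mcm6 measured 17.1, 12.7 and 15.0 TPM on vehicle and 20.6, 17.6 and 20.2 TPM with GW4064. Mcm5 measured 4.64, 3.86 and 3.61 TPM, then 5.02, 3.04 and 4.29 TPM. Treated Mcm6 libraries were above all vehicle libraries, while those of Mcm5 lay on both sides (0.01 ± 0.19, adjusted p = 0.989).

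Pcna stayed within 66.2 and 73.4 TPM in the 6 wild-type libraries (log2 0.03 ± 0.06, limma adjusted p = 0.828). Thymidylate synthase, Tyms, measured 14.4, 12.4 and 14.2 TPM on vehicle and 12.9, 12.2 and 11.4 TPM with GW4064 (-0.16 ± 0.10, adjusted p = 0.406). With standard errors of 0.06 and 0.10 these were among the more precise values of the set.

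Of the G1/S members none passed in wild type. E2f1, a factor that switches on S phase genes, measured 1.57, 1.94 and 1.93 TPM on vehicle and 2.97, 2.94 and 3.87 TPM with GW4064 (log2 0.70 ± 0.22, limma adjusted p = 0.103). Ccnd1 measured 99.1, 99.2 and 83.6 TPM, then 122.2, 120.2 and 118.3 TPM (0.36 ± 0.15, adjusted p = 0.225). In both genes the treated libraries were all higher. Ccne2, a cyclin E gene, differed by 0.22 ± 0.15 with overlapping groups, and Ccne1 was listed at 0 to 1.35 TPM.

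**Figure D3:**
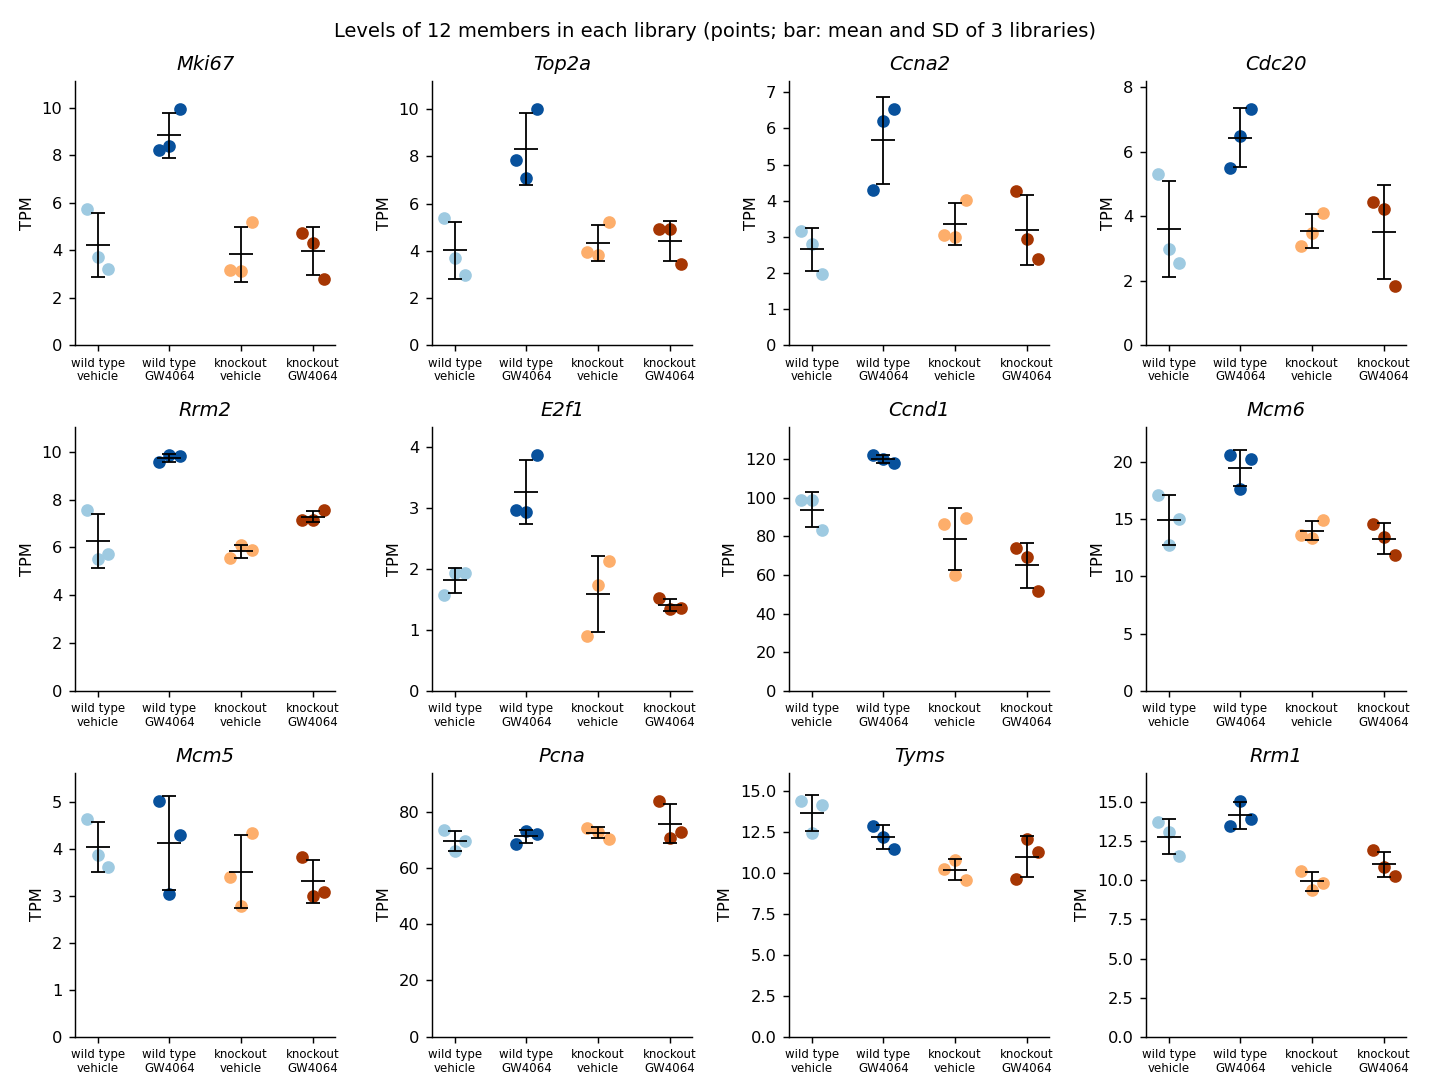
TPM of 12 members (vertical axes, from 0) in the 4 groups; points are libraries and bars the mean and SD of 3. Mki67, Top2a, Ccna2, Cdc20, Rrm2, E2f1, Ccnd1 and Mcm6 have all 3 wild-type GW4064 points above the wild-type vehicle points, Mcm5 and Pcna do not, and Tyms and Rrm1 are lower in the knockout on vehicle.

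Separation of the groups was counted next. In wild type, 16 of 21 tested mitosis members and 3 of 10 replication members had every GW4064 library above every vehicle library, against 10.1% of all genes tested. The 16 include Foxm1, whose place in the test came from the treated libraries, so its separation is no support. No member had every treated library below, against 16.7% of all genes. Members moved up and down together between libraries of a group as well. Of the 22 mitosis members, 18 were highest in replicate 1 of the wild-type vehicle libraries and 15 lowest in replicate 3, and in knockout GW4064 19 were lowest in replicate 3. Over the 12 libraries the median Pearson correlation between log2 levels of 2 mitosis members was 0.73 (210 pairs), against 0.22 between replication members (45 pairs). After subtracting group means it was 0.52 and 0.23. All pairs share the same 12 libraries, and these correlations are descriptions. Mcm6 (0.89), Mcm3 (0.85) and Rrm2 (0.82) followed the mean of the mitosis members most closely among replication members, and Pcna (-0.02) and Mcm4 (0.09) least.

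The next comparison asked whether the same genes differ after GW4064 where the receptor gene is disrupted. No member passed in the knockout. Of all genes tested 0.0138% did (limma). Rrm2 and Mcm7 were the 2 of 34 members with an unadjusted p under 0.05, against 10.8% of all genes. They were also the 2 members with every treated library higher, against 8.78% of all genes, and 0 members had every treated library lower, against 5.07%. The median log2 change was 0.02 over mitosis members, 12 of 21 of them above 0, and 0.10 over replication members. Mitosis groups overlapped in the knockout for all 21 tested members.

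The difference between the genotypes in their change was then tested itself, as an interaction. No member passed (limma), while 3.19% of all genes did (213 higher and 249 lower, or 138 and 362 with median-of-ratios scaling), and 9 of 34 members had an unadjusted p under 0.05 against 19.0% of all genes. The median interaction, knockout minus wild type, was -0.75 over mitosis members (20 of 21 below 0) and -0.03 over replication members (6 of 10 below 0), with 0.05 over all genes. Lowest adjusted p among members belonged to Ccna2 (-1.05 ± 0.32, adjusted p = 0.1) and Top2a (-0.96 ± 0.30, adjusted p = 0.11). A difference between genotypes in the response of these members was therefore not shown over all genes tested.

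On vehicle, knockout and wild type differed in 2 members, both of nucleotide supply, while 3.19% of all genes were higher in the knockout and 9.73% lower. These 462 higher and 1410 lower genes became 846 and 533 with median-of-ratios scaling and 674 and 591 with quantile scaling, so the balance between the directions turned with the scaling. Tyms was lower in the knockout, at 10.3, 10.8 and 9.55 TPM (log2 -0.40 ± 0.10, limma adjusted p = 0.0201). Rrm1 was lower, at 10.6, 9.37 and 9.86 TPM against 13.8, 13.1 and 11.6 TPM in wild type (-0.35 ± 0.09, adjusted p = 0.0247). Neither pair of groups overlapped. These were the 2 members with every knockout library lower, against 26.8% of all genes, and 0 had every one higher, against 7.89%. The median over all genes was itself -0.087, and both calls ended with median-of-ratios and quantile scaling (adjusted p up to 0.0876 for Tyms and 0.154 for Rrm1). The Tyms call was also lost without wild-type vehicle replicate 1 or 3 or knockout vehicle replicate 1 or 3, and that of Rrm1 without wild-type vehicle replicate 1 or 2 or knockout vehicle replicate 2 or 3. Mitosis members had a median of -0.002, with 10 of 21 above 0.

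Under GW4064, 11 of 34 members were lower in the knockout than in wild type and 0 higher, against 11.4% and 7.08% of all genes (limma). Over all genes the 1026 higher and 1651 lower calls became 1244 and 1317 with median-of-ratios scaling. This comparison uses the same wild-type GW4064 libraries as the first, so the 2 are not independent. Mitosis members had a median of -0.73 with 6 of 21 called, namely Mki67 (-1.09 ± 0.24), Top2a (-0.84 ± 0.21), Aurkb (-0.89 ± 0.25), Aurka (-0.89 ± 0.27), Ccna2 (-0.75 ± 0.22) and Tpx2, a spindle assembly factor (-0.88 ± 0.26). Replication members had a median of -0.20 with 3 of 10 called, Mcm6 (-0.54 ± 0.11), Rrm2 (-0.40 ± 0.11) and Rrm1 (-0.35 ± 0.09).

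Of the G1/S members Ccnd1 and E2f1 were lower in the knockout under GW4064. Ccnd1 was at 74.0, 69.5 and 51.8 TPM there against 118.3 to 122.2 TPM in treated wild type (-0.90 ± 0.15, limma adjusted p = 0.00188). E2f1 was at 1.53, 1.34 and 1.36 TPM against 2.94 to 3.87 TPM (-0.97 ± 0.22, adjusted p = 0.0102). The Tpx2 level was 1.45, 1.08 and 0.83 TPM against 2.26, 2.35 and 2.76 TPM, and that of Aurkb was 1.17, 0.68 and 0.66 TPM against 1.98, 1.91 and 1.94 TPM. Aurka measured 1.05, 1.79 and 0.92 TPM against 2.86, 2.84 and 2.35 TPM. Groups were separate in all 11 called members. In all, 23 of 34 members, Foxm1 again included, had every knockout library lower, against 22.7% of all genes, and 0 had every one higher, against 14.0%.

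Calls of Ccnd1, E2f1, Mcm6 and Mki67 under GW4064 held when any of the 12 libraries was left out. The others did not. Aurkb and Tpx2 lost theirs without any wild-type GW4064 library or knockout GW4064 replicate 2 or 3, Aurka without any wild-type GW4064 library or knockout GW4064 replicate 1 or 3, and Rrm2 without any wild-type GW4064 library or knockout GW4064 replicate 1 or 2. Ccna2 lost it without replicate 2 or 3 of either GW4064 group, Top2a without replicate 3 of either, and Rrm1 without wild-type GW4064 replicate 2 or knockout GW4064 replicate 3 (limma adjusted p up to 0.125). With the fat marker covariate the calls of Rrm2, Aurka and Tpx2 ended, with a replicate block those of Ccna2, Aurka and Tpx2, with no filter or only the groups compared that of Ccna2, and with a pseudocount of 0.1 that of Tpx2 (adjusted p up to 0.082).

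In the first comparison, Rrm2 kept its call without each library in turn (limma adjusted p up to 0.0367). Mki67 lost its call when wild-type vehicle replicate 2 or 3 was removed, or any wild-type GW4064 library, Top2a without vehicle replicate 2 or 3 or GW4064 replicate 1 or 3, and Ccna2 without vehicle replicate 2 or 3 or GW4064 replicate 2 or 3 (adjusted p up to 0.127, 0.0859 and 0.116). Other settings ended the Mki67 call too: no low-value filter, no variance trend, a replicate block and the fat marker covariate (adjusted p up to 0.0723). Ccna2 lost its call with no filter and with the block (adjusted p up to 0.0558), and Top2a with the fat marker covariate (adjusted p = 0.0683). The count of 4 became 9 without wild-type vehicle replicate 1, the vehicle library with the highest mitosis levels, and 1 without vehicle replicate 2 or 3 or GW4064 replicate 3. The medians were steadier: 0.63 to 0.91 for mitosis and 0.08 to 0.16 for replication over the 12 removals.

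Other genes of the pathway, from lists of 42 mitosis, 46 replication and 28 G1 control genes, were counted in the same way. Shares over all genes were 2.48% higher and 2.32% lower. Of 34 tested mitosis genes 3 rose with GW4064 in wild type and 0 fell, with a median of 0.45 and 30 of 34 above 0. Of the 3, Ncapg reached 1 TPM only in the wild-type GW4064 libraries. Without those libraries Nuf2, Kif4, Ckap2l, Dlgap5 and Ndc80 would not have passed the filter either. These counts and the median therefore lean in part on genes that entered the test through the treated wild-type group. Of 43 tested replication genes 1 rose and 0 fell, with a median of 0.02 and 22 above 0. Of 25 tested G1 control genes none passed, with a median of -0.06. None of the 3 lists had a called gene in the knockout with GW4064 (limma).

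**Figure D4:**
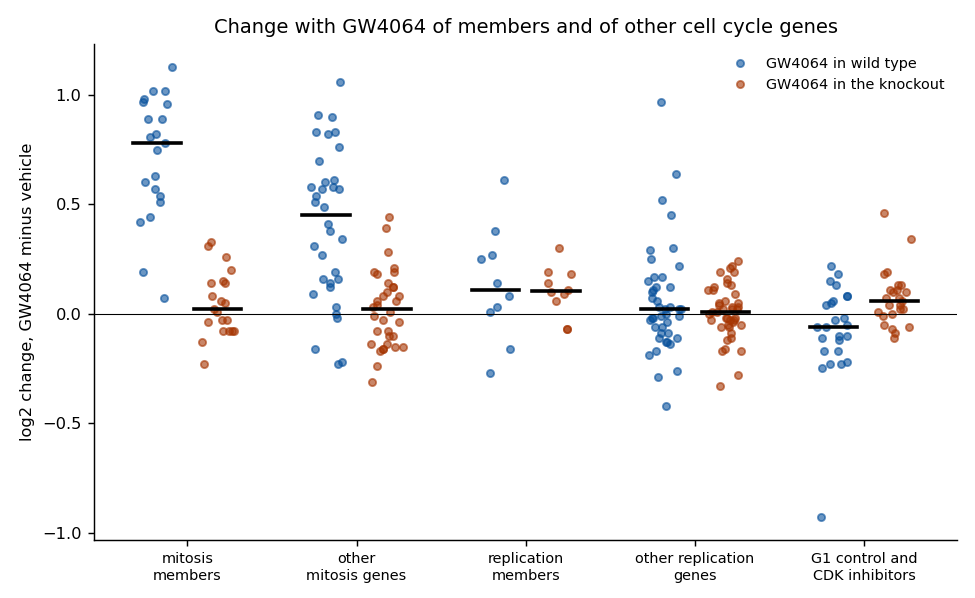
Log2 change with GW4064 (vertical axis) of each tested gene in 5 lists; blue points are wild type, brown points the knockout, and black bars the list medians. In wild type the medians are 0.78 and 0.45 for mitosis members and other mitosis genes, and 0.11 and 0.02 for replication members and other replication genes.

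The replication gene that rose was Mcm10, an origin factor that activates the helicase. It measured 3.18, 3.34 and 3.48 TPM on vehicle and 7.73, 6.49 and 6.82 TPM after GW4064 in wild type, and 1.9 to 2.61 TPM in the 6 knockout libraries (log2 0.97 ± 0.12, limma adjusted p = 0.00076). Treated wild-type libraries were far above the rest, and the value in the knockout was -0.16. The mitosis genes that rose were Kif20b, a kinesin of cytokinesis (0.58 ± 0.08, adjusted p = 0.00206), the condensin subunit Ncapg (0.91 ± 0.20, adjusted p = 0.0277) and Ect2, which activates RhoA at the cleavage furrow (0.51 ± 0.13, adjusted p = 0.0418). Kif20b measured 7.44, 7.28 and 6.53 TPM, then 10.53, 10.98 and 10.99 TPM, in wild type and 6.54 to 7.54 TPM in the knockout. Mcm10 and Kif20b kept their calls without each library in turn. Ncapg, which reached 1 TPM only in the wild-type GW4064 libraries, lost its call when wild-type vehicle replicate 2 or 3 was removed, and Ect2 lost its call without any of the 6 wild-type libraries or knockout vehicle replicate 1 or 2 (adjusted p up to 0.134). Both calls also ended with the fat marker covariate, that of Ncapg with only the groups compared, and that of Ect2 with no filter (adjusted p up to 0.101).

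In the G1 control list, 0 of 25 tested genes were called with GW4064 in either genotype, and 6 were called between the genotypes in each setting. Cdkn1a (p21, an inhibitor of cyclin-dependent kinases) measured 1.53, 2.23 and 1.88 TPM in wild type on vehicle and 5.66, 7.61 and 6.53 TPM in the knockout (log2 1.58 ± 0.15, limma adjusted p = 9.3e-05). Under GW4064 it was at 1.49 to 1.66 TPM in wild type and 7.39 to 9.04 TPM in the knockout (2.09 ± 0.15, adjusted p = 3.8e-06). The G1 kinase gene Cdk6 was also higher in the knockout in both settings (0.44 ± 0.06 and 0.64 ± 0.06), and the inhibitor Cdkn1c was lower (-0.52 ± 0.11 and -0.41 ± 0.11). On vehicle 2 genes of the list were higher and 4 lower in the knockout, and under GW4064 3 were higher and 3 lower. Over all genes 3.19% were higher and 9.73% lower on vehicle, and 7.08% and 11.4% under GW4064. The Cdkn1c call under GW4064 ended without any wild-type GW4064 library or knockout GW4064 replicate 2 or 3 (limma adjusted p up to 0.0843), and its vehicle call ended with only the groups compared (adjusted p = 0.0502), while Cdkn1a and Cdk6 kept theirs in all removals.

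Among mitosis genes outside the 36, under GW4064, 10 of 34 were lower in the knockout and 2 higher, against 11.4% and 7.08% of all genes. The 10 include Ncapg, which passed the filter only through the treated wild-type libraries. The CDK-binding gene Cks2 was lower (37.1 against 69.7 TPM, -0.91 ± 0.10, limma adjusted p = 9.5e-05), as were Kif20b (-0.63 ± 0.08) and citron kinase Cit (-1.28 ± 0.18). The kinesin Kif23 (0.49 ± 0.09) and the kinetochore gene Spc25 (0.52 ± 0.08) were higher. On vehicle 1 of the 34 was higher in the knockout and 4 were lower, against 3.19% and 9.73% of all genes. Kif23 was the higher gene (7.89 against 5.03 TPM). The lower genes were Cit (-1.11 ± 0.18), Cks2 (40.8 against 53.5 TPM), Pttg1 and Bora. Of these vehicle calls, those of Cks2 and Bora did not hold in all removals of a library. Spc25 stood at 47.2 to 74.8 TPM in the 12 libraries, above every mitosis member.

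Markers of other cell types are given beside the wild-type change in mitosis members. Of 11 leukocyte markers 6 could be tested and 1 rose, the macrophage receptor Csf1r (38.9 ± 1.58 to 47.0 ± 1.54 TPM, SD, n = 3, log2 0.27, limma adjusted p = 0.00695). Their summed level was 81.9 to 89.2 TPM on vehicle and 90.6 to 93.5 TPM after GW4064 in wild type, and 88.6 to 100.8 TPM in the knockout. The wild-type difference in that sum leans on Csf1r. Of the other tested leukocyte markers, Ptprc (log2 0.03) and Adgre1 (0.1) were above 0 with GW4064 in wild type. Lyz2 (-0.14), Cd68 (-0.09) and Itgam (-0.14) were below 0, and none of these was called. The lymphocyte markers Cd3e, Cd79a, Ms4a1 and Ccr7 were at 0 to 1.18 TPM in all 12 libraries. Tubule injury markers summed to 12.6 to 16.4 TPM on vehicle and 11.5 to 18.1 TPM with GW4064, with 0 of 3 tested called. Of these, the proximal tubule injury gene Havcr1 (KIM-1), was at 2.0, 1.45 and 0.77 TPM on vehicle and 4.09, 2.15 and 3.61 TPM with GW4064 in wild type, with no overlap (log2 1.01, limma adjusted p = 0.154). In the knockout it was at 1.59 to 3.13 TPM, then 0.91 to 3.02 TPM, and it was singled out after its values were seen. The other injury markers did not follow it in wild type, and their groups overlapped. Lcn2 was at log2 -0.11 and Vcam1 at 0.01. Krt20 (mean 0.338 TPM, then 0.185 TPM) and Sox9 (0.401 TPM, then 0.308 TPM) were too low to test. Aqp2 went from 257.8 ± 22.1 to 179.5 ± 18.2 TPM (SD, n = 3) in wild type (log2 -0.52, adjusted p = 0.0147), and in the knockout from 196.3 to 162.5 TPM (-0.28, adjusted p = 0.361). Fat markers summed to 20.6 to 31.4 TPM on vehicle and to 1.503, 37.6 and 5.71 TPM in wild type with GW4064. The globin gene Hba-a1, which has a near-identical copy, was at 907.5 TPM in wild-type GW4064 replicate 2 and at 8.42 to 23.8 TPM in the others. Without that replicate the mitosis median was 0.81, and the Mki67 and Ccna2 calls ended. In a fit that takes the fat marker score as covariate the median was 0.67, and the Mki67 and Top2a calls ended. The part of leukocytes, of tubule injury and of Aqp2-expressing cells in the result was not tested.

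Of tested genes on no cell cycle list, the 8 whose log2 level followed the mean of the mitosis members most closely over the 12 libraries had Pearson correlations of 0.888 to 0.927. They were the histone genes H1f1, H2ac22, H2bc15 and H3c8, the DNA glycosylase Neil3, the checkpoint kinase Chek1, the ribonuclease Rnase4 and Eml5. The correlation is a description over libraries that also define the groups. Neil3 reached 1 TPM only in the wild-type GW4064 libraries, and Chek1 only in those and in wild-type vehicle replicate 1. Both genes therefore entered the test through the group in which they were high, so their place among the 8 is no support. H1f1, the closest, averaged 8.69 ± 2.75 TPM on vehicle and 13.5 ± 2.85 TPM after GW4064 in wild type (SD, n = 3), and 7.17 ± 1.44 and 7.64 ± 2.79 TPM in the knockout.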

How the data were processed

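The authors prepared stranded total RNA libraries, per the labels' protocols, and HISAT2, StringTie and Cufflinks on mm10 are named per the submitters' processing notes. Of these tools no version, and no annotation, is given in the sources used here. TPM as deposited is scaled to 1000000 per library after division by gene length. The deposited FPKM values, a constant multiple of TPM in each library, served as an alternative. The deposited coverage signal and its ratio to FPKM gave depth. Entries of 1 identifier were summed. Symbols came from the RefSeq table of GRCm38.p6, for 24462 of 24532 identifiers.

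Values were transformed as log2(TPM + 0.5), which understates changes of low genes. The 14488 genes that reached 1 TPM in 3 or more libraries were fitted with limma 3.58.1 in R 4.3.3, with 1 mean per group, all 12 libraries and moderated variances that follow the mean level. Contrasts were Benjamini-Hochberg adjusted over all genes and called under 0.05. The fit was tested on simulated data. Alternatives changed the pseudocount, the filter, the scaling, the unit, the variance model, the weights or the samples fitted, added a replicate block or a fat marker covariate, or left out each library.

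The members and lists were chosen with earlier results of these data known. By the naming rule any member could be named. Values per library were given for members called in any comparison, the markers Mki67, Top2a and Rrm2, and the members of lowest and highest p in each role in wild type. Other pathway genes were named when called (at most 6 per list, otherwise the 3 of lowest p in each direction), though not all are printed. Bub1, Pcna, Mcm6 and the genes with printed promoters were added after their values were seen.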

Additional observations from a re-analysis of the deposited data

Results flagged for a closer look

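In Mcm10 and Kif20b, cell cycle genes outside the 36 members, the change with GW4064 differed between the genotypes by the interaction test (limma, Benjamini-Hochberg adjusted over all genes, n = 3 per group). For Mcm10 the difference, knockout minus wild type, was -1.13 ± 0.17 on the log2 scale (adjusted p = 0.00512), and it passed without each library in turn. For Kif20b it was -0.66 ± 0.12 (adjusted p = 0.0144), also passing without each library, but not in a fit with the fat marker covariate (adjusted p = 0.0598). Ncapg reached 1 TPM only in the 3 wild-type GW4064 libraries, and so entered the test through the group in which it was high. Its value of -1.22 ± 0.29 (adjusted p = 0.0459) is given as a description, and the call ended in all 9 removals of a library that left the gene in the test (adjusted p up to 0.105). All 3 genes were higher in the 3 wild-type GW4064 libraries than in each of the other 9.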

How the results depend on the processing

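In wild type with GW4064 the count of 4 called members was 2 with a replicate block, 2 with the fat marker covariate, and 1 to 9 when each library was left out in turn. The mitosis minus replication difference of 0.67 was 0.89 with a mean of at least 5 TPM and 0.48 with FPKM. It was 0.53 with a pseudocount of 1, and 0.51 to 0.75 over the removals. FPKM is a constant multiple of TPM in each library, so the fixed pseudocount of 0.5 weighs differently on it. With the 5 TPM filter Mki67 and Top2a were the only mitosis members left, here and in the comparisons below. Differences under that filter therefore describe these genes and not the mitosis set. With GW4064 in the knockout the count was 0 throughout, and the difference of -0.08 ran from -0.12 to 0.04, changing sign without knockout vehicle replicate 3 (0.01) or knockout GW4064 replicate 3 (0.04). For knockout against wild type on vehicle, the count of 2 was 0 with median-of-ratios scaling, 0 with quantile scaling, 1 with only the groups compared, and 0 to 2 over the removals. Under GW4064 the count of 11 was 6 with a mean of at least 5 TPM, where 11 members could be tested, and 5 to 14 over the removals. The difference there, -0.53, became -0.93 with that filter and -0.63 to -0.43 over the removals. For the interaction the count of 0 was 0 to 1, the 1 without knockout vehicle replicate 2, and the difference of -0.72 was -0.98 with a mean of at least 5 TPM, -0.53 with FPKM and -0.80 to -0.53 over the removals. The cause was not tested.

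Members near 0 in wild type changed sign. Bub1b was at -0.05 with the fat marker covariate and ran from -0.06 (without vehicle replicate 3) to 0.24 over the removals. Mcm5 was at -0.009 with sample weights and -0.03 with the fat marker covariate, and ran from -0.13 to 0.19 over the removals. Mcm2 ran from -0.04 to 0.16, Pcna from -0.003 to 0.07 and Plk1 from -0.05 to 0.49, each lowest without vehicle replicate 2. Over all genes tested, deviations of same-numbered libraries correlated at -0.075 to 0.083, which does not settle what single genes do. Birc5 was at 2.99, 2.78, 2.77 and 2.78 TPM in replicate 2 of the 4 groups, and at 0.39 to 3.7 TPM in the other libraries. Identifiers with several entries numbered 113 to 120 in replicate 2 and 126 to 142 in the others. Whether the numbers mark a shared batch cannot be told from the labels. Under the replicate block 2 of the 4 calls in wild type remained, Rrm2 and Top2a, and 8 members in place of 11 were called between genotypes under GW4064. Scaling moved the median of all genes by less than 0.1. Coverage of the mitosis members was low, and its part in their spread was not tested.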

Other observations

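Replication-dependent histone genes, whose transcripts accumulate in S phase and mostly lack poly(A) tails, can be read in total RNA libraries. They were looked at after 4 of them appeared among the genes that followed the mitosis members, so they were chosen after their values were seen and no test is given. Of 60 such genes with enough signal, 48 had a log2 value above 0 with GW4064 in wild type, with a median of 0.29 and a range of -1.03 to 1.08. In the knockout 29 of 60 were above 0, with a range of -1.21 to 1.62. Their mean log2 level was 4.31, 4.0 and 3.89 in wild-type vehicle libraries and 4.39, 4.26 and 4.53 with GW4064, and these ranges overlap because wild-type vehicle replicate 1 was high, as it was for the mitosis members. Their summed level was 3344 to 3764 TPM on vehicle and 3431 to 3647 TPM with GW4064, which overlaps fully. Many histone genes are near-identical copies, so the division of reads between them is uncertain.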
